A study of Mus musculus with 7 samples.

Results

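The regions described here are binding peaks of CTCF and of the cohesin subunit Smc1 at the 4 mouse Hox clusters, mapped by ChIP-seq (sequencing of DNA recovered with an antibody against a chromatin protein) in neural progenitor cells. A peak was taken when its midpoint lay in 1 of 4 windows on mm9, each holding a Hox cluster and 100 kb on either side. The windows were chr6:52000000-52320000 for Hoxa, chr11:95950000-96330000 for Hoxb, chr15:102650000-102970000 for Hoxc and chr2:74390000-74710000 for Hoxd. They held 98 of 80884 peaks, that is 52 of 42893 CTCF peaks and 46 of 37991 Smc1 peaks.

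The study compared chromosome folding in V6.5 embryonic stem cells and in neural progenitors derived from them, and mapped CTCF and Smc1 in the progenitors. V6.5 is a male mouse line of 129SvJae and C57BL/6 background. To obtain progenitors, cells formed embryoid bodies over 4 days in the absence of LIF, were selected in ITSFn, a serum-free medium, for 5 to 7 days, and were propagated with Fgf2 for another 2 to 4 days before fixation in 1% formaldehyde. Each factor had 1 library (Bethyl antibody for Smc1, Upstate antibody for CTCF), so the lists have no replicate check and no test between conditions was possible. No stem cell peak list was used, and a peak list cannot test the labelled cell type against its expressed markers. No peak sequence is shown because no mm9 genome was used.

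CTCF is a zinc-finger protein that binds DNA at a long motif, and cohesin is a ring complex that extrudes chromatin loops and often stops at bound CTCF. Smc1 is 1 of the ATPase arms of that ring. Hox genes encode homeodomain transcription factors that pattern the body axis and limbs. Within a cluster they are lined up in the order in which they act from anterior to posterior, and CTCF sites inside the clusters are known as borders between active and Polycomb-silenced parts. In the neural tube, anterior Hox genes act in the hindbrain and posterior ones in the spinal cord.

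All 39 Hox genes matched the gene table of GRCm38.p6, which was used for names and order only. Going up the chromosome, Hoxa lies between Skap2 (an adaptor of Src kinases) and Evx1 (a homeobox gene) and ends with Hoxa13, its posterior end. The other 3 clusters run the opposite way. Hoxb goes from Hoxb13 to Hoxb1, between Ttll6 (a tubulin-modifying enzyme) and Skap1 (an adaptor in T cells). Hoxc goes from Hoxc13 to Hoxc4, between Calcoco1 and Smug1 (a uracil DNA glycosylase). Hoxd goes from Hoxd13 to Hoxd1, between Evx2 (a homeobox gene) and Mtx2 (a mitochondrial import protein). No other protein-coding gene lies between the outermost Hox genes of a cluster in that table. Since the build differs from that of the peaks, no peak was placed in an exon, intron or promoter. Positions below are in kb from the window's start, and the body of a cluster is its window without the 100 kb at each end.

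CTCF and Smc1 were dense in all 4 bodies, while the flanks ran from empty to denser than the body. Per 100 kb, the bodies held 5.83 CTCF peaks in Hoxa, 5.56 in Hoxb, 5.00 in Hoxc and 7.5 in Hoxd. The mean over 24685 windows of 100 kb on chr1 to chr19 was 1.69. The flanks held 1.5 CTCF peaks per 100 kb in Hoxa, 7.00 in Hoxb, 1.5 in Hoxc and 0.00 in Hoxd. In the same order of clusters, Smc1 had 5.83, 5.56, 4.17 and 8.33 peaks per 100 kb of body and 1.00, 5.00, 0.50 and 0.50 per 100 kb of flank, against a mean of 1.5. Of the 4 clusters, Hoxd had the densest body and no CTCF peak in its flanks. Single windows of 100 kb without a CTCF peak made up 40.4% on chr1 to chr19. Hoxb was the only cluster whose flanks held more CTCF peaks per 100 kb than its body.

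**Figure D1:**
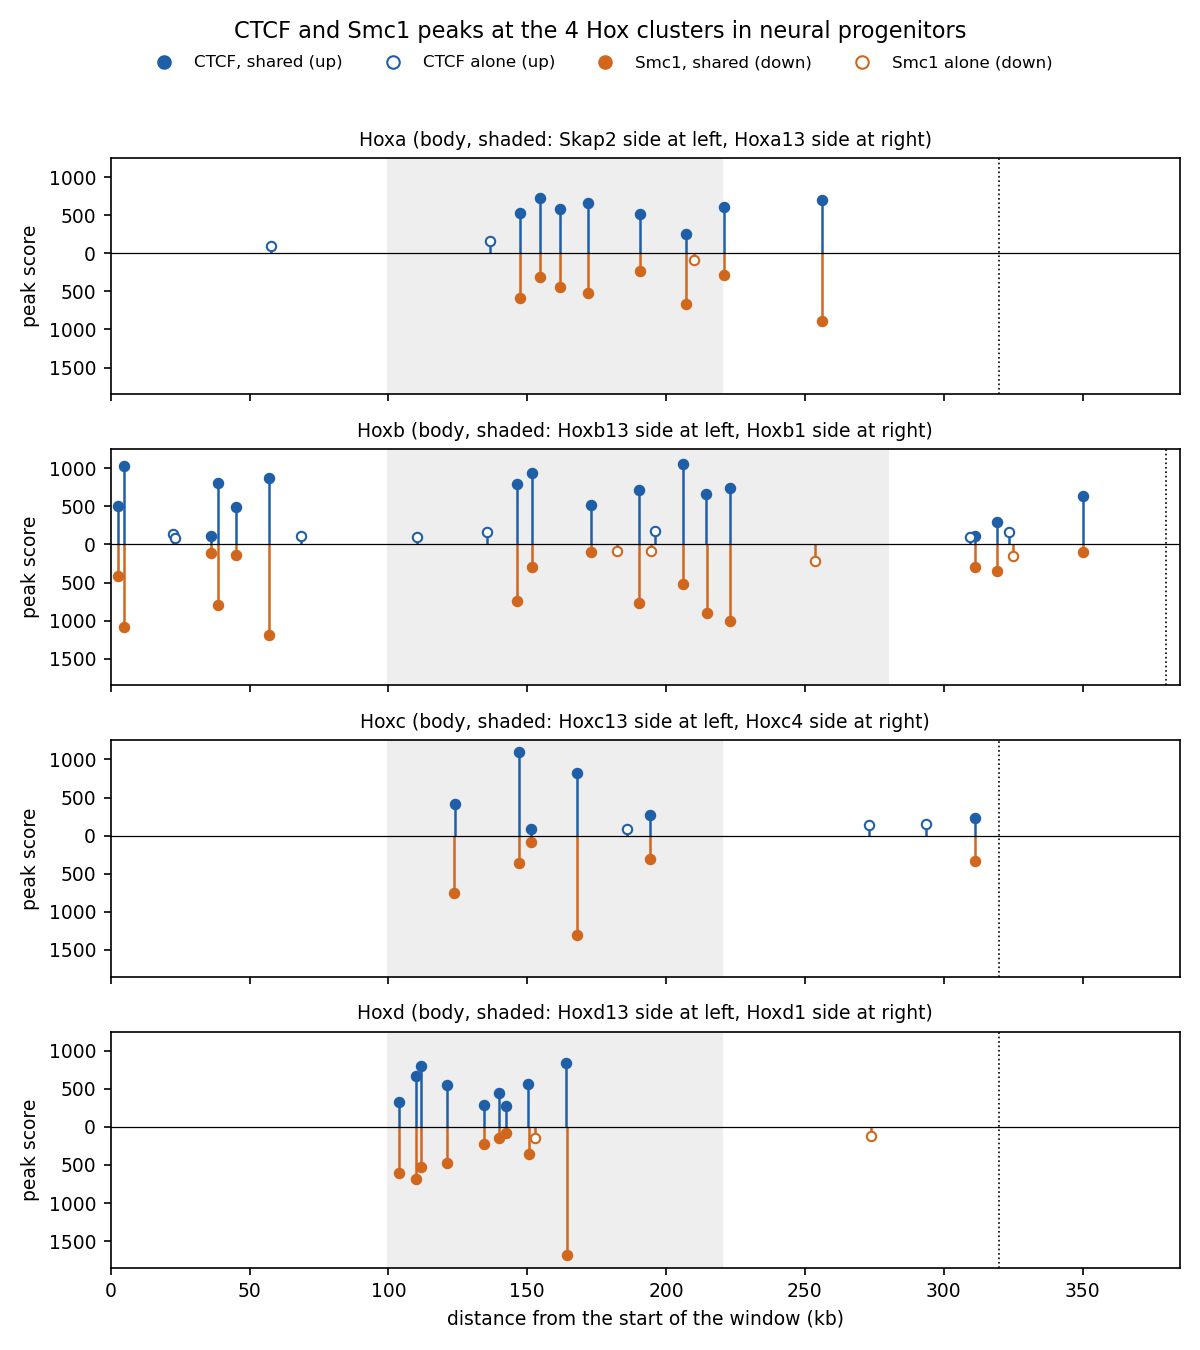
CTCF peaks (up) and Smc1 peaks (down) in the 4 windows, drawn at their midpoints in kb from the window's start, with height as the deposited score. Filled circles are peaks that overlap a peak of the other list, open circles are peaks of 1 list alone, shading marks the body and the dotted line the window's end. Peaks fill the Hoxb flanks, and all 9 Hoxd CTCF peaks stand between 104 and 164 kb.

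**Figure D2:**
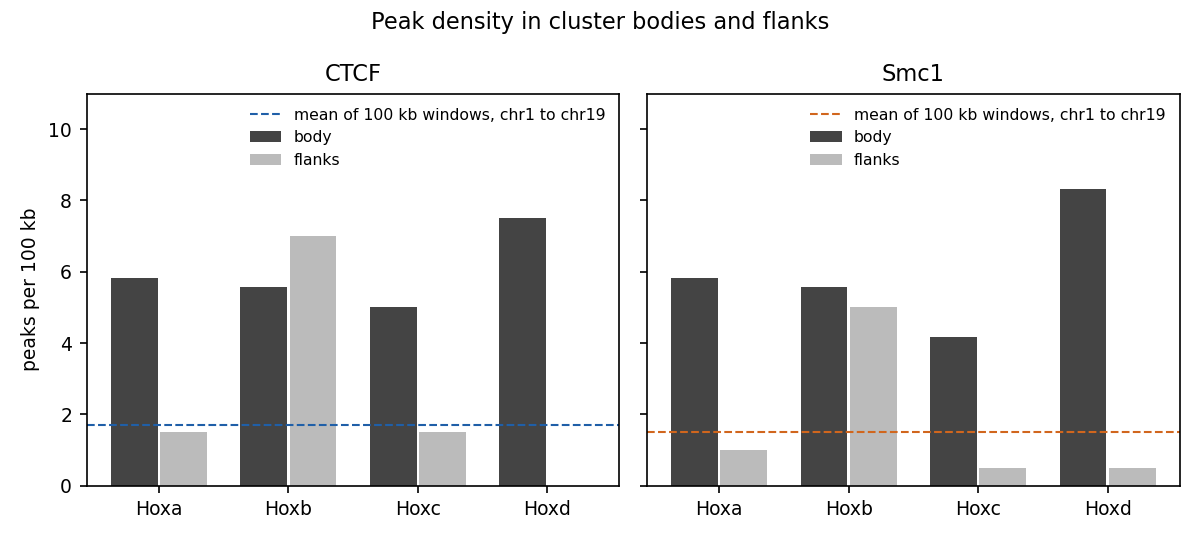
Peaks per 100 kb in the body (dark bars) and in both flanks together (light bars) of each cluster, for CTCF (left) and Smc1 (right), with 1 library each. The dashed line is the mean of 100 kb windows on chr1 to chr19 (1.69 CTCF and 1.5 Smc1 peaks), which every body exceeds and the flanks of Hoxb alone exceed.

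Peaks were then split into shared ones, which overlapped a peak of the other list by at least 1 bp, and peaks of 1 list alone. Of the 52 CTCF peaks 39 were shared (75.0%, exact 95% binomial interval 61.1 to 86.0), against 67.6% of the 41909 CTCF peaks on chr1 to chr19. Of the 46 Smc1 peaks 39 were shared (84.8%, 71.1 to 93.7), against 76.6% of 37113. Both shares lie close to the background, which falls inside their intervals. The intervals cover counting error only, and neighbouring peaks of 1 library are not independent. Every shared site had exactly 1 partner, which left 13 CTCF-alone and 7 Smc1-alone peaks.

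By cluster, Hoxd had 9 shared CTCF peaks of 9 (100%, interval 66.4 to 100), Hoxa 8 of 10 (80%, 44.4 to 97.5), Hoxb 16 of 24 (66.7%, 44.7 to 84.4) and Hoxc 6 of 9 (66.7%, 29.9 to 92.5). These intervals are wide and overlap, and a difference in the share between clusters was not tested. Over the 4 bodies 27 of 32 CTCF peaks were shared (84.4%, 67.2 to 94.7), and over the flanks 12 of 20 (60.0%, 36.1 to 80.9), again with overlapping intervals. With scores of at least 200 required in both lists, the order turned, with 100% in Hoxa and Hoxc, 78.6% in Hoxb and 77.8% in Hoxd. Hoxb held 8 of the 13 CTCF-alone peaks and 4 of the 7 Smc1-alone peaks, beside 24 of all 52 CTCF and 20 of all 46 Smc1 peaks. Hoxc had no Smc1-alone peak and Hoxd no CTCF-alone peak.

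Whether a CTCF peak was shared went with its score. The score is the authors' own value per peak, starts at 80 in both lists, and is read here as higher for peaks of smaller p-value. All 13 CTCF-alone peaks scored between 87.6 and 174, that is within the lower 35.0% of the CTCF list. All 36 CTCF peaks of the windows that scored at least 200 were shared (100%, 90.3 to 100), against 88.3% of such peaks on chr1 to chr19. Of the 16 that scored less, 3 were shared (18.8%, 4.05 to 45.6), against 36.9%. The Smc1-alone peaks were weak as well, with scores from 87.8 to 217 and a median of 125, against 441 for the 39 shared Smc1 peaks.

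In Hoxd the CTCF peaks formed 1 compact row on the posterior side of the cluster. All 9 lay within 60.4 kb, at steps of 1.96 to 13.7 kb, and 8 of the 9 lay on the Hoxd13 side of the body's midpoint. Among 41757 runs of 9 consecutive CTCF peaks on chr1 to chr19, which overlap each other, 0.968% were as short. The median run was 282 kb long. For the body peaks of the other clusters, the share of runs of equal peak number that were as short was 7.7% in Hoxa, 6.19% in Hoxb and 14.3% in Hoxc. Peak number and length were each cluster's own values, so these shares are a description and not a test. Of 20568 windows of the body's length (120 kb), 509 (2.47%) held at least 9 CTCF peaks, and 0.462% held at least its 10 Smc1 peaks.

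The row ended in the Smc1 peak with the highest score of all 4 windows. The CTCF peak at chr2:74553729-74554474 (164 kb) was 746 bp wide and scored 840, and the Smc1 peak over it was 844 bp wide and scored 1683, at percentile 99 of the Smc1 list. Beyond it, on the side of Hoxd1 and Mtx2, the remaining 55.9 kb of the body held no CTCF peak. The next CTCF peak came only after 249 kb, outside the window, and 4.00% of the 41890 intervals between neighbouring CTCF peaks on chr1 to chr19 were as long (median 21.3 kb). That interval held 1 Smc1-alone peak, at 274 kb with a score of 125, which lay 110 kb from the nearest CTCF peak.

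The opposite end of the row was also an edge. The first CTCF peak, at chr2:74493482-74493941 (104 kb), scored 322 with a Smc1 score of 602, and the next CTCF peak on the side of Evx2 and Lnpk lay 108 kb away. As many as 12.4% of intervals were that long. Next to the first peak stood a close pair at 110 and 112 kb. The peak at chr2:74499617-74500232 scored 667 for CTCF and 685 for Smc1, and the peak at chr2:74501651-74502121 scored 795 and 533. Smc1 scores were lower in the middle of the row than at its ends. Between 135 and 150 kb, 4 CTCF peaks scoring 270 to 564 had Smc1 scores of 82.1 to 361, of which the lowest stands just above the threshold of the list. A Smc1-alone peak at chr2:74542628-74543069 (score 147) lay 2.47 kb from the nearest CTCF peak.

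In Hoxa the peaks began well inside the cluster on the anterior side and ran past its posterior end. The body held 7 CTCF and 7 Smc1 peaks, and 6.34% and 3.39% of windows of its length held at least as many. From the start of the body, on the Skap2 side, the first 36.7 kb held no CTCF peak. The first one, at chr6:52136442-52136891 (137 kb, score 160), was CTCF alone, 10.7 kb from the nearest Smc1 peak. The interval before it measured 79.1 kb, and 17.6% of intervals were as long. From 147 kb on, 6 shared sites followed at steps of 7.03 to 18.6 kb, with CTCF scores of 251 to 727.

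CTCF and Smc1 scores did not rank the 8 shared Hoxa sites alike (Spearman rho = 0.0238). The value was 0.585 over 16 pairs in Hoxb, 0.771 over 6 in Hoxc and 0.75 over 9 in Hoxd. All 4 values rest on few sites, and a difference between clusters was not tested. The strongest CTCF peak of Hoxa, at chr6:52154400-52154914 (155 kb), scored 727 with a Smc1 score of 317. The peak at chr6:52171585-52172149 (172 kb) scored 655 and 524. The weakest shared CTCF peak, at chr6:52206825-52207379 (207 kb, the last in the body), scored 251 under a Smc1 peak of 670. That Smc1 peak was the strongest of the Hoxa body, while its CTCF peak stood at percentile 48.6 of the CTCF list. The only Smc1-alone peak of the window followed at chr6:52209684-52210067 (210 kb, score 88.6), 2.77 kb away from the nearest CTCF peak.

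Past the Hoxa13 end, towards Evx1 and Hibadh (an enzyme of valine breakdown), the flank held 2 shared sites. The peak at chr6:52220353-52221007 (221 kb) scored 607 for CTCF and 284 for Smc1 and lay under 1 kb outside the body's edge, so that a slightly wider body would have counted it. The peak at chr6:52255842-52256294 (256 kb) scored 697 and 891, and its Smc1 peak was the strongest of the Hoxa window. After it the next CTCF peak lay 109 kb away. The flank on the Skap2 side held a single peak, CTCF alone at chr6:52057477-52057709 (58 kb) with a score of 99.5.

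Hoxb, the longest window at 380 kb, held 44 peaks, more than any other. Its body had 10 CTCF and 10 Smc1 peaks, and 5.60% and 2.68% of windows of 180 kb had at least as many. Its 14 flank CTCF peaks were split into 9 on the side of Ttll6 and Calcoco2 (an autophagy receptor) and 5 on the Skap1 side, numbers that 1.16% and 10.9% of 100 kb windows reached. The strongest peak of the body, at chr11:96155739-96156370 (206 kb), scored 1061 for CTCF and 519 for Smc1. The peak at chr11:96101551-96101890 (152 kb) scored 933 for CTCF and 290 for Smc1. A flank peak of similar strength, at chr11:95954525-95955159 (4.8 kb), scored 1031 and 1087.

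The 10 CTCF peaks of the Hoxb body stretched over 113 kb between 110 and 223 kb, and they were weak at the Hoxb13 end. The first, at chr11:96059977-96060348 (110 kb, score 99.5), was CTCF alone and 36.2 kb from the nearest Smc1 peak. The second, at 135 kb with a score of 158, was CTCF alone as well, and the 7 shared sites began at 146 kb. The last 3 of those, at 206, 215 and 223 kb, followed each other at the end of the row with Smc1 scores of 519, 903 and 1005. The last of these was the CTCF peak at chr11:96172751-96173381, which scored 740.

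As in Hoxd, the anterior end of Hoxb was free of CTCF peaks. The 56.9 kb of body after the last peak, on the side of Hoxb1 (a hindbrain gene of rhombomere identity), held none, and the interval reached 86.4 kb to a weak CTCF-alone peak in the flank at chr11:96259277-96259695 (score 94.2). As many as 15.9% of intervals were that long. The strongest Smc1-alone peak of the windows, at chr11:96203251-96203651 (253 kb, score 217), lay inside it, 30.4 kb from the nearest CTCF peak. The strongest CTCF-alone peak of the windows, at chr11:96145785-96146159 (196 kb, score 174), lay 1.48 kb from a Smc1-alone peak with a score of 91.7. No other peak of 1 list alone lay closer to a peak of the other list.

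Hoxc was the sparsest window, with 9 CTCF and 6 Smc1 peaks. Its body held 6 and 5, which 9.76% and 11.2% of windows of its length reached. The strongest CTCF peak of all 4 windows lay here, at chr15:102796738-102797206 (147 kb). It scored 1104, above 95.7% of the CTCF list, with a Smc1 score of 352. The peak at chr15:102817834-102818172 (168 kb) scored 819 under a Smc1 peak of 1298, the second strongest Smc1 peak of the windows. The first in the body, at chr15:102773608-102774187 (124 kb), scored 417 and 756.

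The Hoxc row was bounded on both sides by stretches without CTCF peaks. Before the first peak, on the side of Hoxc13 (a gene of hair and nail growth) and Calcoco1, the interval was 136 kb long and reached past the window, so that this flank held no peak of either list. As many as 9.28% of intervals were that long, and 40.4% of 100 kb windows held no CTCF peak. After the last body peak, at chr15:102843842-102844366 (194 kb, CTCF 275 and Smc1 310), the interval towards Smug1 was 79.0 kb. It ended in a CTCF-alone peak at chr15:102922942-102923347 (score 145). The strongest CTCF-alone peak of the window, at chr15:102943447-102943834, scored 157.

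Hoxa, Hoxb and Hoxd had more room free of CTCF at the anterior end of the body than at the posterior end. In Hoxa the stretch measured 36.7 kb on the Skap2 side and 12.9 kb on the Hoxa13 side. In Hoxb the stretch of body without a CTCF peak measured 56.9 kb on the Hoxb1 side and 10.2 kb on the Hoxb13 side. In Hoxd it was 55.9 kb on the Hoxd1 side and 3.71 kb on the Hoxd13 side. In Hoxc the ends were closer to each other, with 25.9 kb on the Hoxc4 side and 23.9 kb on the Hoxc13 side. The edges of the bodies are round positions and not gene ends, so a part of each stretch may lie outside the outermost gene, and the pattern was noticed after the values were seen.

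In Hoxa, Hoxc and Hoxd, whole windows stood out from the background less than the bodies did, while in Hoxb the whole window was the rarer of the 2. For CTCF, 19.5% of 7703 windows of 320 kb held at least the 10 peaks of Hoxa, and 24.0% at least the 9 of Hoxc and, equally 24.0%, the 9 of Hoxd. Of 6487 windows of 380 kb, 2.11% held at least the 24 of Hoxb. For Smc1 the shares were 18.9% for the 9 peaks of Hoxa, 1.43% for the 20 of Hoxb, 37.6% for the 6 of Hoxc and 11.1% for the 11 of Hoxd. Windows of 320 kb had medians of 4 CTCF and 4 Smc1 peaks, so that Hoxa, Hoxc and Hoxd lay above the median, and Hoxb was the only one that fewer than 5% of windows equalled or exceeded. The background windows were not matched for gene content.

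**Figure D3:**
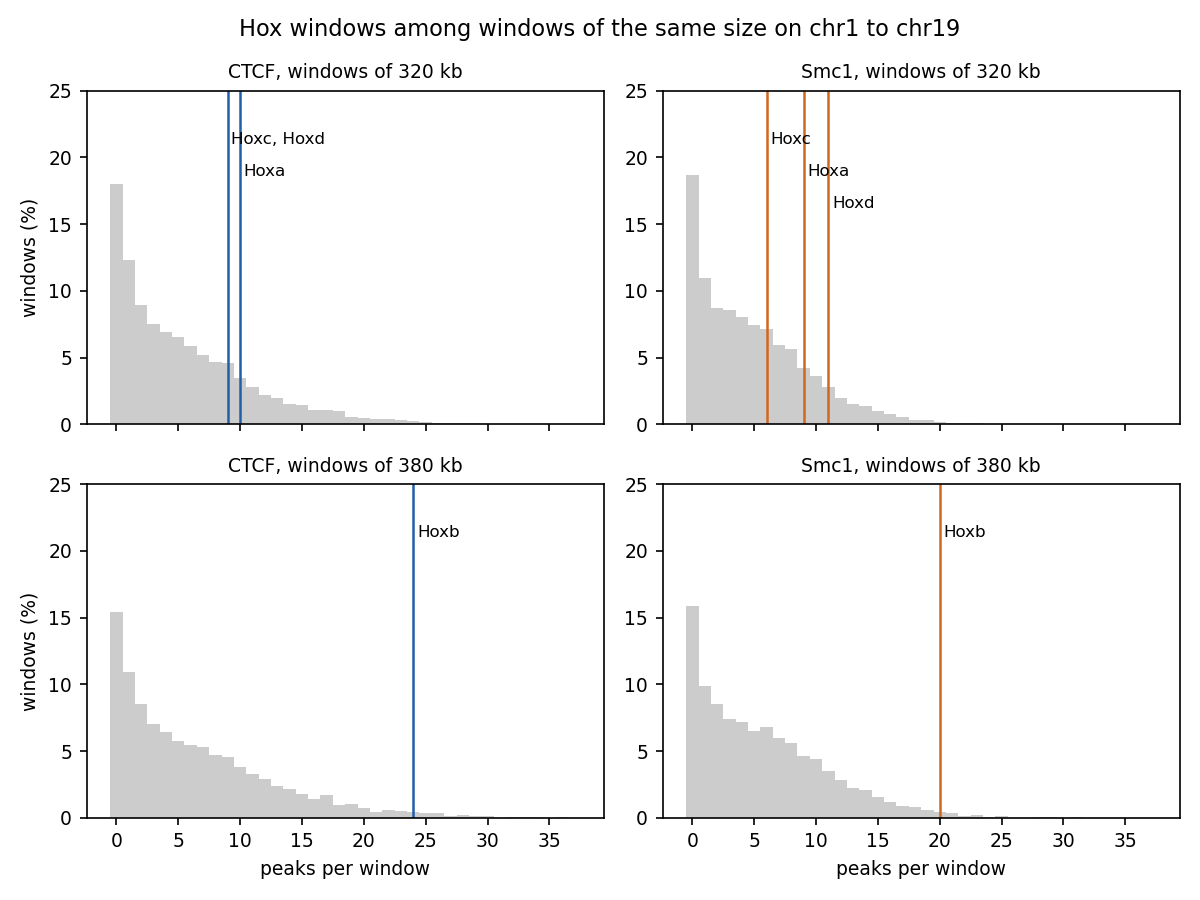
Share of windows on chr1 to chr19 (y axis, percent) by number of peaks (x axis), for CTCF (left) and Smc1 (right), in windows of 320 kb (top) and 380 kb (bottom). Vertical lines mark the Hox windows, and Hoxb, with 24 CTCF and 20 Smc1 peaks, stands in the right tail.

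More CTCF peaks of the Hox windows than 1 in 4 lay in the top 25% of the list, while their share at its very top was near that of the list. Of the 52 CTCF peaks 22 (42.3%) lay in the top 25% of CTCF scores, 5 (9.62%) in the top 10% and 2 (3.85%) in the top 5%. In the bodies alone 16 of 32 lay in the top 25%. For Smc1 18 of 46 (39.1%) lay in the top 25% and 3 (6.52%) in the top 5%. The median score of the 39 shared CTCF peaks was 578, against 409 for shared CTCF peaks on chr1 to chr19, and 441 against 321 for shared Smc1 peaks. Median widths were 452 bp for CTCF and 468 bp for Smc1, against 443 and 411 bp.

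CTCF and Smc1 summits could not be compared, since the lists give peak edges only, but the midpoints of shared pairs nearly coincided. The median distance was 54.0 bp over the 39 pairs, with a highest value of 150 bp, against a median of 42.0 bp over 28344 pairs on chr1 to chr19. The Smc1 midpoint lay on the higher coordinate in 24 pairs and on the lower in 15. Across the 39 pairs, log10 scores of CTCF and Smc1 correlated at Pearson r = 0.552 and Spearman rho = 0.580, against 0.641 and 0.644 across all pairs. These values describe sites of the same 2 libraries, which are not independent replicates. Smc1 scored above CTCF in 17 of 39 pairs (43.6%), against 40.5% of all pairs, although scores of 2 lists are not on 1 scale.

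**Figure D4:**
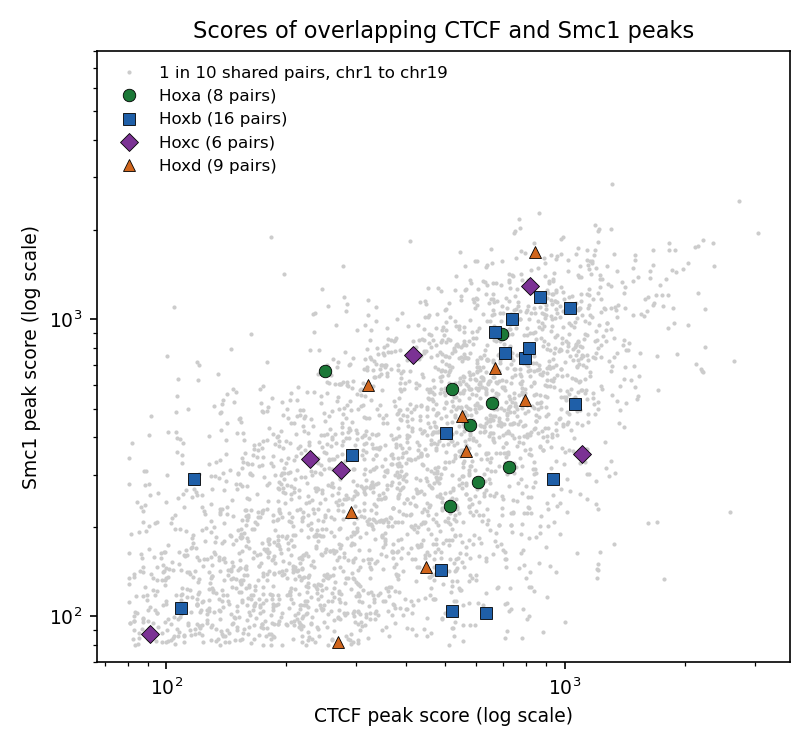
Score of the Smc1 peak (y axis, log scale) against that of the overlapping CTCF peak (x axis, log scale) for the 39 shared pairs of the Hox windows, coloured by cluster, over 1 in 10 of the shared pairs on chr1 to chr19 in grey. The Hox pairs lie within the grey cloud, with the Hoxd pair of CTCF 840 and Smc1 1683 near its upper edge.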

How the data were processed

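ChIP-seq peaks of CTCF and Smc1 in neural progenitors were analysed, with 1 library each. The authors deposited each list as mm9 positions with 1 score for every peak. Peaks carry MACS in their names, per the deposited files, and Bowtie and mm9 are listed, per the submitters' processing notes. The deposited score was used to describe and rank peaks within 1 list. The same limits of 100 and 200 were also set in both lists. The 2 scores of shared pairs were compared as well, though they are not on 1 scale. The MACS version and the use of the input library are not given in the sources used here. The depth of the libraries is unknown, and it sets how many weak peaks pass the threshold. The 5C table covers other regions and was not used.

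Peaks were assigned by midpoint, and shared meant an overlap of at least 1 bp. Background windows were laid end to end from the start of each of chr1 to chr19 to its last peak, without those touching a Hox window. Shares have exact Clopper-Pearson intervals of 95%, which cover counting error only. Named peaks were, per window, the 3 shared CTCF peaks of highest score, the strongest peak of each list alone and the CTCF peaks next to the body's edges. Other single peaks (the Hoxd peaks at 135 to 150 kb and 274 kb, and the Hoxb peaks at 135, 146, 215 kb and the Smc1-alone partner) were chosen after their values were seen. The regions and lists were chosen with earlier results of these data known. Scripts used Python 3.11.15, pandas 2.3.3, numpy 2.4.6 and scipy 1.17.1, and were tested on simulated peaks. Alternatives were other overlap rules, stricter scores, other flanks and other background windows.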

Additional observations from a re-analysis of the deposited data

How the results depend on the processing

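Overlap of at least 50% of the shorter peak, or midpoints within 200 bp, left all class counts of the 4 windows as they were. With scores of at least 100 the Smc1-alone peaks fell from 7 to 4. With scores of at least 200 in both lists 2 Smc1 peaks stood alone, both in Hoxb. They were the Smc1-alone peak of score 217 and a shared Smc1 peak of score 291 whose CTCF peak scored 117. CTCF-alone peaks then numbered 5, none of them among the 13: these are shared CTCF peaks whose Smc1 peak scored less than 200. The share of shared CTCF peaks became 100% in Hoxa and Hoxc, 78.6% in Hoxb and 77.8% in Hoxd, where it was 88.9% with scores of at least 100. In bodies alone 5 CTCF-alone peaks were left. Shares of windows with at least as many peaks as a Hox window moved as follows, in the order Hoxa, Hoxb, Hoxc, Hoxd. In bodies alone they became 6.34%, 5.60%, 9.76% and 2.47% for CTCF and 3.39%, 2.68%, 11.2% and 0.462% for Smc1. With scores of at least 200 they became 12.0%, 3.30%, 28.5% and 8.74% for CTCF and 5.38%, 0.972%, 22.3% and 8.96% for Smc1. With scores of at least 100 CTCF moved to 29.8% in Hoxc and 19.7% in Hoxd, and Smc1 to 40.0% in Hoxc and 9.92% in Hoxd. Among windows with at least 1 peak CTCF moved to 23.0% in Hoxa and 28.4% in both Hoxc and Hoxd, and Smc1 to 22.3% in Hoxa, 44.4% in Hoxc and 13.1% in Hoxd. Flanks of 50 kb and windows starting elsewhere moved no share beyond its interval and no count by over 1.5 times. Without replicates, the spread between libraries is unknown. No paired analysis was possible because the results come from no test and each factor has 1 library.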

Other observations

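For each cluster, background windows were counted with at least as many CTCF peaks in the centre and no more in the flanks. Since both limits are the cluster's own counts, a small share follows in part from how they were set. This comparison was added after the Hox values were seen and is a description. Of 7703 windows of 320 kb, 179 held at least 9 CTCF peaks in their central 120 kb, and in 0 of these were the flanks free of CTCF as in Hoxd. With windows sliding by 10 kb, 40 of 246257 (0.0162%), which overlap each other, met both conditions, out of 5998 with as rich a centre. A count of 0 among as few as 179 therefore says little. For Hoxa, with 7 CTCF peaks in the body and 3 in the flanks, 63 windows (0.818%) met both conditions out of 480 with as rich a centre. For Hoxc, with 6 and 3, 120 windows (1.56%) did out of 761. For Hoxb, with 10 and 14, the number was 317 windows (4.89%) out of 354. The Hoxb flanks are not poor, and those of Hoxa and Hoxc, each at 1.5 CTCF peaks per 100 kb, lie near the mean of 1.69. Both flanks were free of CTCF in Hoxd only, while in Hoxc just the flank on the Hoxc13 side held none.

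The place of the highest Smc1 score within the row of CTCF peaks was also looked at in the 4 clusters. Each row has few sites of 1 library and no background share was computed, so this is a description. The highest Smc1 score of the body stood at the last CTCF site of the body in Hoxa (670, at 207 kb), Hoxb (1005, at 223 kb) and Hoxd (1683, at 164 kb), and at an inner site in Hoxc (1298, at 168 kb). In Hoxa this rests on the body's round edge, since the next shared site, under 1 kb outside it at 221 kb, had a Smc1 score of 284. By gene order, the site lies towards Hoxa13 in Hoxa, towards Hoxb1 in Hoxb and towards Hoxd1 in Hoxd. In Hoxd alone the same site also had the highest CTCF score of the body.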
